A study of Mus musculus with 8 samples.

Results

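The genes described here are 6 regulators that set how much of the SREBP transcription factors reaches the nucleus and how lipoprotein receptors are removed: Srebf1, Srebf2, Scap, Insig1, Insig2 and Mylip. They were chosen by name, for their place in the pathway, with earlier results of these data known. They make up 6 of the 18846 genes listed in the deposited tables. All 6 passed the filter on low counts, which kept 15361 genes for testing. The lowest estimated count of any of them in a library was 130 and the highest was 9093. On GRCm38 the genes span chromosome 11 from 60199084 to 60224186 (Srebf1), chromosome 15 from 82147269 to 82205379 (Srebf2), chromosome 9 from 110333288 to 110384949 (Scap), chromosome 5 from 28071412 to 28078662 (Insig1), chromosome 1 from 121304353 to 121332662 (Insig2) and chromosome 13 from 45389742 to 45411940 (Mylip).

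The data are RNA-seq libraries of mouse adrenal glands, 8 in all, each from 1 animal of the strain 129SVEV. Wild-type mice and mice labelled Siah1a -/-, called knockout below (Siah1a encodes a ubiquitin ligase), were compared without treatment and 1 h after ACTH, the pituitary hormone that drives steroid production in the adrenal cortex. ACTH was injected intraperitoneally at 100 µg/kg. The untreated mice carry no label of a vehicle injection, and the animals' age is not among the labels used here. Each of the 4 groups holds 1 library labelled male and 1 labelled female, so that each genotype and each treatment is represented by 4 libraries.

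SREBP-1 and SREBP-2, the products of Srebf1 and Srebf2, are made as precursors anchored in the membrane of the endoplasmic reticulum. SCAP escorts them to the Golgi apparatus, where proteases release the part that enters the nucleus and switches on genes of fatty acid and cholesterol synthesis, while INSIG-1 and INSIG-2 hold SCAP back when sterols are plentiful. Insig1 and Srebf2 are themselves target genes of SREBPs. Mylip, also called Idol, encodes a ubiquitin ligase that is induced by the oxysterol-sensing LXR receptors and marks lipoprotein receptors such as VLDLR and LRP8 for breakdown. The adrenal cortex draws on both synthesis and lipoprotein uptake for the cholesterol that becomes steroid hormone.

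The sequences before the annotated starts of Insig1, Srebf2 and Mylip are shown because Insig1 and Mylip were the genes of the set whose levels did not overlap between genotypes, and because Srebf2 was the only gene of the set with a sterol regulatory element core in its window. They were read from the RefSeq promoter table for build GRCm38.p6, in which all 6 genes matched, with 11 windows between them. Each is written 5′ to 3′ on the strand of the gene, has the matched letters in capitals, and begins 250 bases before the RefSeq start. The sequences of Insig1 and Srebf2 were cut short of that start, at the base before the earliest GENCODE transcript start, to 201 and 162 bases, and that of Mylip is whole. The windows are chr5:28071162-28071362 on the plus strand for Insig1, chr15:82147019-82147180 on the plus strand for Srebf2, and chr13:45389492-45389741 on the plus strand for Mylip.
Insig1: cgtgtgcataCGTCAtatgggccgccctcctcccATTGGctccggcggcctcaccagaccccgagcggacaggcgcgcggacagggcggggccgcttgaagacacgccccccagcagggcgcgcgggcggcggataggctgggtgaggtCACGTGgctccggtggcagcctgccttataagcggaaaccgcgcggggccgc
Srebf2: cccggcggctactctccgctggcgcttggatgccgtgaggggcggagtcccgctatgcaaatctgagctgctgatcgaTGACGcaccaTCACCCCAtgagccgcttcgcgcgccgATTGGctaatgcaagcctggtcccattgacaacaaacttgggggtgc
Mylip: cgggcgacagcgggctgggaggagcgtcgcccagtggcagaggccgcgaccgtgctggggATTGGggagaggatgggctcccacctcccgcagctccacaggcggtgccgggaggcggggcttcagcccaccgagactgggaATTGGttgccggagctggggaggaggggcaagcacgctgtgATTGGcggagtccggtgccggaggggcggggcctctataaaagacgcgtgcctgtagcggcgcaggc

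Both strands of the 250 bases before each RefSeq start were searched for the sterol regulatory element consensus TCACNCCAC, the E-box CACGTG, the NF-Y box CCAAT and the cAMP response motif TGACG. The element core TCACCCCA, which overlaps the consensus in its letters, was added after the sequences had been seen. The consensus was in 0 of the 11 windows, against 1.05% of the 32851 windows in the table. Positions are counted back from the RefSeq start, which is 28071412 for Insig1, 82147269 for Srebf2 and 45389742 for Mylip, and not from the end of the sequence as printed. The core was in the Srebf2 window, at positions -162 to -155, with a cAMP response motif at -172 to -168 and an NF-Y box on the other strand at -135 to -131. Of all windows, 1.34% held the core, 17.8% a cAMP response motif and 33.8% an NF-Y box. The Insig1 window held an E-box at -101 to -96, a motif in 6.02% of all windows, as well as an NF-Y box at -216 to -212 and a cAMP response motif at -240 to -236. The Mylip window held 3 NF-Y boxes, at -190 to -186, -108 to -104 and -67 to -63. NF-Y boxes were found in 6 windows of 5 genes in the set, Scap being the gene without one. These matches describe letters in the windows and not sites in use.

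Per kilobase of transcript, Insig1 was the most abundant of the 6 in 7 of 8 libraries. Levels between genes are compared here as RPKM (reads scaled to transcript length and library size, summed over the listed transcripts of a gene). In wild-type glands Insig1 stood at 75.3 ± 29.8 RPKM (SD, n = 4), Scap at 24.9 ± 5.48, Insig2 at 24.5 ± 11.7, Srebf1 at 16.2 ± 3.41, Srebf2 at 11.6 ± 3.35 and Mylip at 4.61 ± 0.652. Scap and Insig2 did not differ beyond their spread, and the ranges of Srebf1 and Srebf2 overlapped, although Srebf1 was above Srebf2 within each of the 8 libraries. In knockout glands Insig1 stood at 31.4 ± 8.08 RPKM (SD, n = 4), Insig2 at 21.7 ± 4.07, Scap at 18.7 ± 8.51, Srebf1 at 12.2 ± 3.07, Mylip at 8.68 ± 1.43 and Srebf2 at 7.47 ± 2.88. Mylip was thus the lowest of the 6 in every wild-type library, and Srebf2 was the lowest in 3 of 4 knockout libraries. The exception at the top was the untreated knockout female library, where Scap was first.

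**Figure D1:**
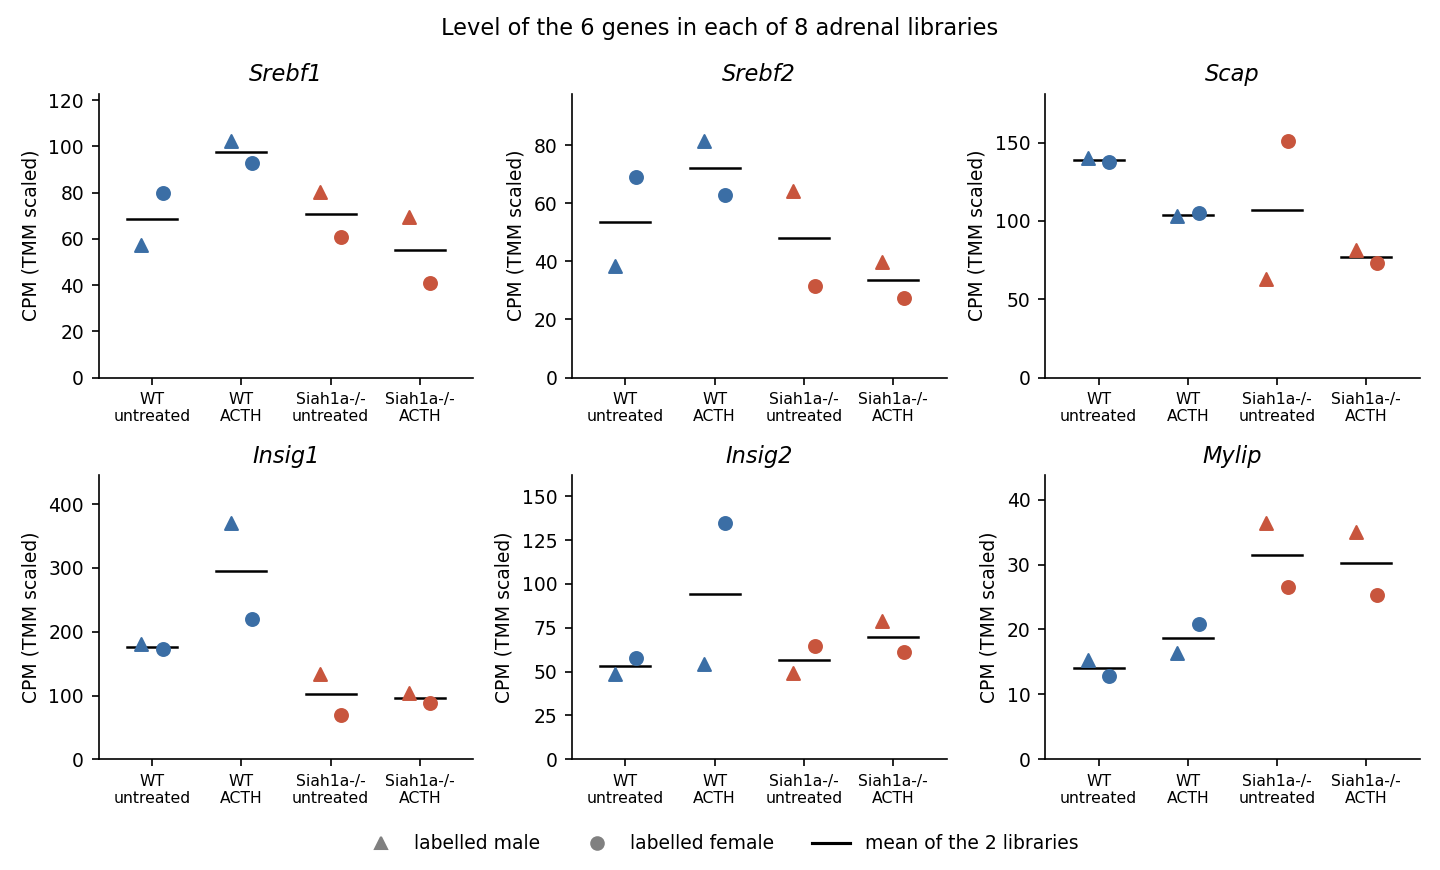
CPM of each gene (y axis, counts scaled to library size with TMM, from 0) in the 8 libraries by genotype and treatment (x axis); triangles are libraries labelled male, circles female, and the bar is the mean of both. The 4 knockout libraries lie between 69.4 and 134 CPM for Insig1, all below the wild-type libraries, and between 25.4 and 36.5 CPM for Mylip, all above them; the other 4 genes overlap.

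Before the comparisons, a few facts about the libraries bear on them. Library totals ran from 8020111 to 29568950 estimated counts. Siah1a was at 26.3, 26.1, 33.1 and 32.4 CPM (estimated counts scaled to library size) in the wild-type libraries and at 25.2, 21.2, 19.0 and 17.4 CPM in the knockout libraries, in the order untreated male, untreated female, ACTH male and ACTH female that is used throughout. The groups did not overlap, but the gene was not absent, and the labels do not say which part of it is deleted, so this count does not check the genotypes. The adrenal cortex markers, 7 of 7 detected in every library, summed to between 26830 and 45410 CPM in wild-type and between 38350 and 51190 CPM in knockout libraries. The untreated library labelled wild-type male goes against its sex label, with 386 CPM of Xist, 3.04 CPM of the Y-linked gene Ddx3y and 0 of Kdm5d, Uty and Eif2s3y, whereas the other 3 libraries labelled male held between 311 and 376 CPM of Ddx3y. The sex covariate and the pairs by sex label used here rest on that label, and without the covariate the average genotype log2 fold change was -1.20 for Insig1 and 0.93 for Mylip. The same library held 1716 CPM of 7 kidney markers, which summed to at most 8.69 CPM elsewhere. The wild-type ACTH female library held 64310 CPM of 8 liver markers, against at most 1179 CPM elsewhere. Values without these 2 wild-type libraries are given below for many of the results but not for all.

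Insig1, the INSIG whose gene answers to SREBP, was lower in the knockout glands. It was at 180, 172, 371 and 220 CPM in the wild-type libraries and at 134, 69.4, 104 and 89.0 CPM in the knockout libraries. The highest knockout library lay below the lowest wild-type library, in the CPM as in the RPKM values. That order fixes the knockout library as the lower one in all 4 pairs matched for treatment and sex label, so the pairs add nothing to it. Wild-type glands averaged 236 ± 92.6 CPM and knockout glands 99.2 ± 27.4 CPM (SD, n = 4 each). The average log2 fold change, knockout minus wild type, was -1.22 with a standard error of 0.22, a 2.33-fold lower level.

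That difference did not pass the test over all genes. The edgeR quasi-likelihood test gave Insig1 an unadjusted p of 0.000593 and a Benjamini-Hochberg adjusted p of 0.102. DESeq2 and limma-voom, run as alternatives, gave adjusted p-values of 1.21e-05 and 0.0398, and over 17 settings the adjusted p ran from 1.21e-05 to 0.283 while the log2 fold change stayed between -1.43 and -1.06. Without the 2 wild-type libraries named above it was -1.38. Adipocytes, which also synthesise fatty acids under SREBP control, can be attached to a dissected gland, and their markers summed to between 992 and 3117 CPM in wild-type and between 545 and 2882 CPM in knockout libraries (8 genes, with Lep and Retn at 0 in the knockout ACTH male library). In the knockout ACTH female library their sum was 2882 CPM with Insig1 at 89.0 CPM. One of the 8 markers, Pck1, was at 2149 CPM in the untreated library labelled wild-type male, the library with kidney markers. Pck1 was at 1180 CPM in the wild-type ACTH female library, which held liver markers, and at 1193 CPM in the knockout ACTH female library. In the remaining libraries Pck1 ran from 137 to 961 CPM, so the sums do not measure adipocytes alone. Tusc5, a gene of adipocytes whose level went with that of Insig1 over the 8 libraries (Pearson r 0.95), averaged 39.4 CPM over the wild-type libraries and 8.16 CPM over the knockout libraries. The part of adipocytes in the Insig1 difference was not tested. In bulk tissue, fewer cells of a type and less RNA per cell cannot be told apart.

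Mylip, the ubiquitin ligase for lipoprotein receptors, was higher in the knockout glands. It was at 15.3, 12.9, 16.4 and 20.9 CPM in the wild-type libraries and at 36.5, 26.5, 35.1 and 25.4 CPM in the knockout libraries. Every knockout library lay above every wild-type library, again on both scales. The means were 16.4 ± 3.36 CPM and 30.9 ± 5.74 CPM (SD, n = 4 each). The log2 fold change was 0.91 with a standard error of 0.25, a 1.88-fold higher level. The unadjusted p from edgeR was 0.00709 and the adjusted p 0.201, which ran from 0.0559 to 0.432 over 17 settings. The log2 fold change stayed between 0.79 and 1.11 in these settings and was 1.07 without the 2 wild-type libraries. Adrenal medulla markers (6 genes, none at 0) summed to between 2017 and 4020 CPM in wild-type libraries and to between 6052 and 7405 CPM in 3 knockout libraries. In the fourth, from the knockout ACTH female, they summed to 1808 CPM, the lowest value of all, and Mylip was at 25.4 CPM, its lowest value among the knockout libraries. The untreated knockout female library held 6052 CPM of medulla markers with Mylip at 26.5 CPM. The wild-type ACTH male library held the most among wild-type libraries, 4020 CPM, with Mylip at 16.4 CPM. The pair of ACTH female libraries had the smallest Mylip difference, 0.28 on the log2 scale against 1.04 to 1.25 in the other 3 pairs. The wild-type library of that pair held liver transcripts and the highest wild-type Mylip value, 20.9 CPM. The part of the medulla in the Mylip difference was not tested.

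Among the 6 genes, 0 were called at an adjusted p under 0.05 in the average genotype comparison by edgeR, against 0.026% of all tested genes. DESeq2 and limma-voom each called 1, Insig1. Of all genes with an adjusted p, DESeq2 called 932 of 15063 and limma-voom 108 of 15361. At an unadjusted p under 0.05, 1 was lower, Insig1, and 1 was higher, Mylip, where 8.11% of all tested genes were lower and 5.33% higher. The same 2 genes were those whose genotype groups did not overlap, 1 on the lower side against 4.71% of all tested genes and 1 on the higher side against 4.21%. The median log2 fold change of the 6 genes was -0.42, with 5 below 0 and 1 above, beside -0.04 over all tested genes.

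**Figure D2:**
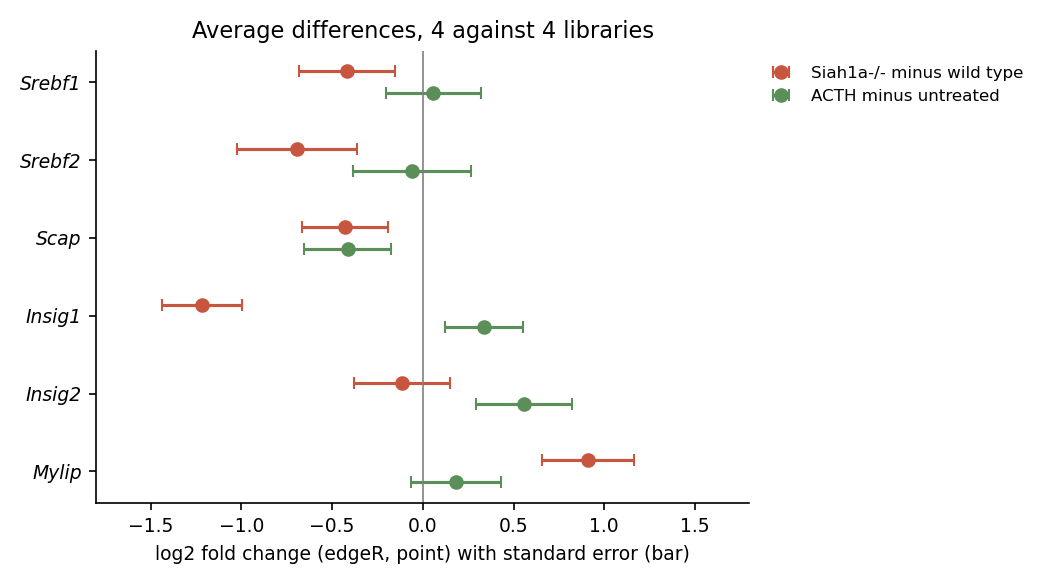
Average log2 fold change of each gene (x axis, points) with its standard error (bars) for knockout minus wild type and for ACTH minus untreated, from edgeR over 8 libraries. Insig1 at -1.22 and Mylip at 0.91 lie farthest from 0 for genotype, and the values for ACTH lie between -0.41 and 0.56.

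The transcripts of the SREBP precursors themselves were not called. Srebf2, which encodes the SREBP that mainly drives cholesterol synthesis, was at 38.2, 69.1, 81.5 and 63.0 CPM in wild-type and at 64.2, 31.6, 39.9 and 27.4 CPM in knockout libraries. The groups overlapped through the untreated library labelled wild-type male and the untreated knockout male, and the log2 fold change was -0.69 with a standard error of 0.33 (edgeR adjusted p = 0.419). Srebf1, which encodes the SREBP that mainly drives fatty acid synthesis, was at 57.3, 79.6, 102 and 92.7 CPM in wild-type and at 80.5, 60.9, 69.4 and 40.7 CPM in knockout libraries. Its groups overlapped too, with a log2 fold change of -0.42 and a standard error of 0.26 (edgeR adjusted p = 0.540). With each library left out in turn, the log2 fold change ran from -1.05 to -0.49 for Srebf2 and from -0.70 to -0.16 for Srebf1. Without the 2 wild-type libraries named above it was -0.95 for Srebf2 and -0.56 for Srebf1. Both genes were lower in the knockout library in 3 of 4 pairs, the untreated pair labelled male being the exception for each. Across the 8 libraries the log2 CPM of Srebf1 and Srebf2 had a Pearson r of 0.92, and Srebf2 had an r of 0.82 with Insig1. These coefficients describe libraries that share their genotype and treatment groups.

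Scap, the escort of the SREBPs, was at 140, 138, 103 and 105 CPM in wild-type libraries, where the libraries of a treatment lay close together. In knockout libraries it was at 62.7, 151, 81.2 and 72.9 CPM, so the untreated knockout female held the highest value of all 8 and the untreated knockout male the lowest. The genotype groups overlapped and the log2 fold change was -0.43 with a standard error of 0.24 (edgeR adjusted p = 0.480), and it ran from -0.70 to -0.21 with each library left out in turn. Insig2, the INSIG whose gene is not a classical SREBP target, was at 48.5, 57.6, 54.1 and 135 CPM in wild-type and at 49.1, 64.3, 78.7 and 61.2 CPM in knockout libraries. The value of 135 CPM came from the wild-type ACTH female, the library with liver transcripts. The log2 fold change was -0.11 with a standard error of 0.26 (edgeR adjusted p = 0.894), and it was 0.18 without that library and 0.17 without both wild-type libraries named above. The part of the liver transcripts in the Insig2 value was not tested.

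Set beside each other per length, the INSIG paralogs differed in their proportion from library to library. The ratio of Insig1 to Insig2, both in RPKM, was 3.57, 2.80, 6.40 and 1.51 in wild-type libraries and 2.54, 1.00, 1.23 and 1.35 in knockout libraries. The ranges overlapped, through the wild-type ACTH female with its high Insig2 and the untreated knockout male.

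**Figure D3:**
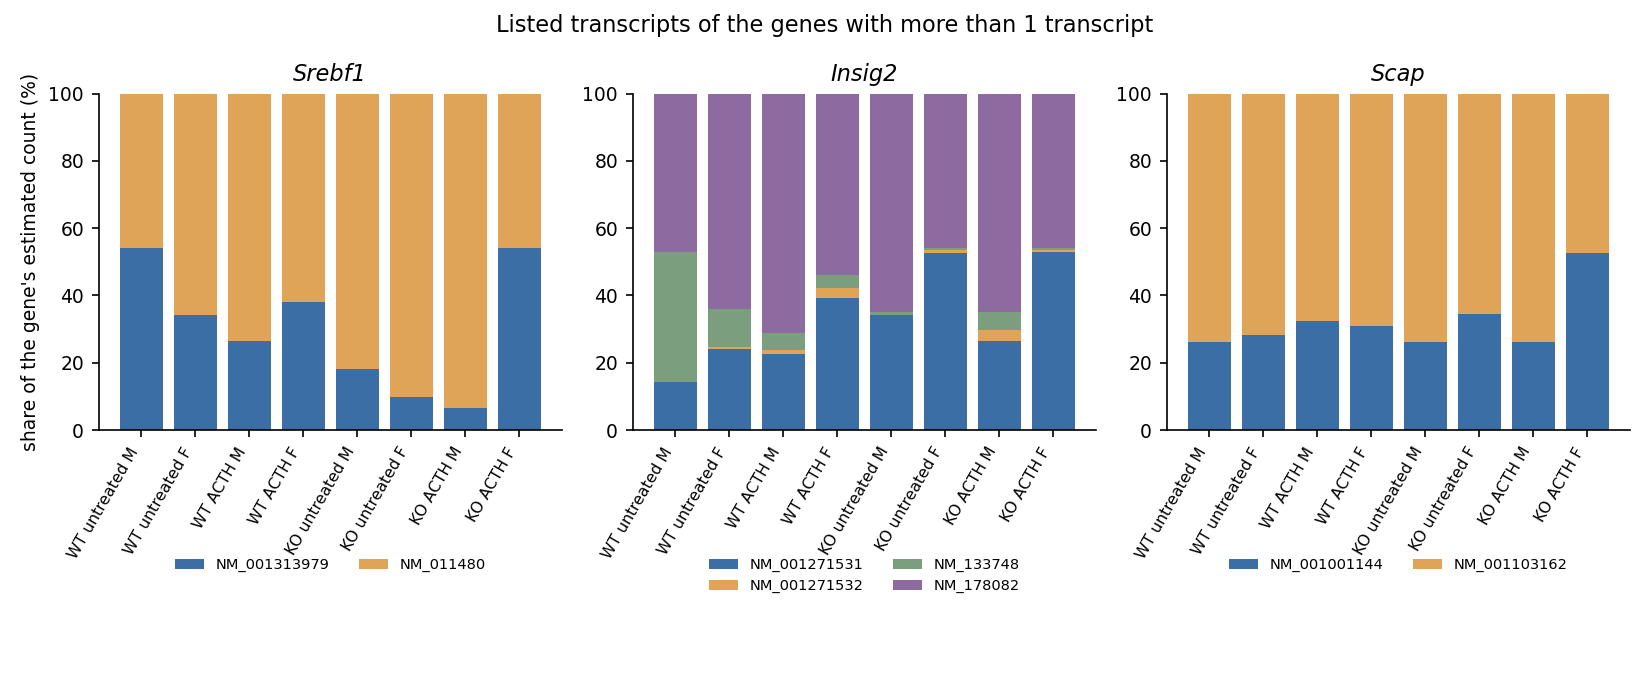
Share of each gene's estimated count (y axis, percent) assigned to each listed RefSeq transcript in the 8 libraries (x axis; WT wild type, KO knockout, M and F the sex labels). The Insig2 transcript NM_133748 reaches 38.7% in the untreated library labelled wild-type male, the library with kidney markers, and is between 0.516% and 11.4% elsewhere.

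Srebf2, Insig1 and Mylip were each listed with 1 transcript, and the other 3 genes with several. For Insig2 the transcript starting farthest upstream, NM_178082 at chromosome 1 position 121332589, took between 45.8% and 71.2% of the gene's estimated count. NM_001271531, which starts at 121327678, took between 14.3% and 52.9%, and NM_133748, which starts at 121328024, took 38.7% in the untreated library labelled wild-type male, 11.4% in the untreated wild-type female and at most 5.41% in the other 6. The share of 38.7% came from the library with kidney markers, where the estimated count of Insig2 was 412, and the part of kidney transcripts was not tested. In 3 of 4 knockout libraries NM_133748 was between 0.516% and 0.731%. For Srebf1, NM_011480 took between 45.8% and 93.3%, with 81.8%, 90.3% and 93.3% in 3 knockout libraries and 45.8% in the knockout ACTH female. Both Srebf1 transcripts correspond to the same GENCODE transcript, so the promoters of the gene could not be told apart. For Scap, NM_001103162 took between 65.5% and 73.7% in 7 libraries and 47.5% in the knockout ACTH female. These shares are estimates for transcripts that overlap, no test was made on them, and the positions are on GRCm38.

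One hour of ACTH did not move any of the 6 genes past the test. At an adjusted p under 0.05, 0 of the 6 were called by edgeR, DESeq2 or limma-voom in the average ACTH comparison. Of all genes with an adjusted p, edgeR called 0.0195%, DESeq2 123 of 14765 and limma-voom 3 of 15361. By edgeR, 0 of the 6 had an unadjusted p under 0.05, against 6.11% of all tested genes in either direction. Treatment groups that did not overlap were found for 0 of the 6, against 3.89%. The log2 fold changes, ACTH minus untreated, were 0.56 for Insig2, 0.34 for Insig1, 0.18 for Mylip, 0.06 for Srebf1, -0.06 for Srebf2 and -0.41 for Scap, with edgeR adjusted p-values between 0.814 and 0.989. Without the 2 wild-type libraries named above these values were 0.21 for Insig2, 0.13 for Insig1, -0.0729 for Mylip, -0.35 for Srebf1, -0.47 for Srebf2 and -0.23 for Scap, so the signs for Srebf1 and Mylip turned.

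Within wild-type glands, Insig1 stood at 176 ± 5.48 CPM without treatment and at 296 ± 107 CPM after ACTH (SD, n = 2 each). Its log2 fold change there was 0.69, between 0.41 and 0.99 with each library left out in turn and 0.52 without the 2 wild-type libraries. It was the 1 gene of the 6 that was higher at an unadjusted p under 0.05 (edgeR adjusted p = 1), where 1.97% of all tested genes were higher. The adjusted count was 0 of 6, with 0% of all tested genes called. In knockout glands Insig1 stood at 102 ± 45.9 CPM without treatment and 96.5 ± 10.6 CPM after ACTH (SD, n = 2 each). There 0 of the 6 genes passed an unadjusted p under 0.05, against 4.22% of all tested genes, and 0 an adjusted one, against 0%. The test of the difference between the genotypes' ACTH responses gave Insig1 a log2 value of -0.70 (edgeR adjusted p = 1), so a different response was not shown. Without the 2 wild-type libraries named above that value was -0.52.

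Srebf1 had the same sign of the interaction. Its level was 68.5 ± 15.8 CPM without treatment and 97.5 ± 6.88 CPM after ACTH in wild-type glands, and 70.7 ± 13.9 and 55.0 ± 20.3 CPM in knockout glands (SD, n = 2 each). The value was higher after ACTH in both wild-type pairs and lower in both knockout pairs, but the interaction of -0.86 on the log2 scale did not pass (edgeR adjusted p = 1). Without the 2 wild-type libraries the interaction was -0.17. By the interaction test, 0 of the 6 genes passed an unadjusted p under 0.05, against 1.84% of all tested genes, and 0 an adjusted one, against 0%.

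The genotypes were also compared within each treatment, with 2 libraries of each. After ACTH, Insig1 had a log2 fold change of -1.57, Srebf2 of -1.11 and Srebf1 of -0.85, knockout minus wild type, so that 3 of the 6 were lower at an unadjusted p under 0.05, against 5.42% of all tested genes. Without the 2 wild-type libraries named above these log2 fold changes were -1.64, -0.91 and -0.65. With all libraries kept, all 3 genes had both knockout ACTH libraries below both wild-type ACTH libraries. How many of all tested genes did so was not counted, so no share stands beside this order of 2 against 2 libraries. The edgeR adjusted p-values were 0.252, 0.584 and 0.575, and 0 of the 6 were called, against 0.00651% of all tested genes. DESeq2 called 1 of the 6, Insig1, at an adjusted p of 3.47e-05, beside 485 of all 15063 genes with an adjusted p. Without treatment, Insig1 was lower with a log2 fold change of -0.87, 1 of the 6 against 2.64% of all tested genes. Mylip was higher there with 1.15, 1 of the 6 against 2.2%. Both had an edgeR adjusted p of 0.892, and 0 of the 6 were called, as were 0% of all tested genes. Without the 2 wild-type libraries named above the untreated log2 fold changes were -1.12 for Insig1 and 1.04 for Mylip.

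The machinery around the 6 genes was then described from lists of named pathway genes, drawn up with earlier results of these data known. None of the lists held a gene called by edgeR in the average genotype comparison. DESeq2 called 932 genes and limma-voom 108 in that comparison, and their calls were not counted by list. The counts below stand beside 5.33% of all tested genes that were higher and 8.11% that were lower at an unadjusted p under 0.05. Of 24 genes that move, cleave or degrade SREBPs, SCAP and INSIGs, 3 were higher and 0 lower in knockout glands at an unadjusted p under 0.05, with a median log2 fold change of 0.02. The 3 were Sec23b, Sar1a and Sec24d, named after their values were seen. They are among 8 genes of the list for the COPII coat, which carries SCAP out of the endoplasmic reticulum, and the other 5, Sec23a, Sec24a, Sec24b, Sec24c and Sar1b, had log2 fold changes between -0.10 and 0.16. Without the 2 wild-type libraries the median of the 24 genes was 0.03, and fewer of them passed, as did fewer of all tested genes. Sec23b, with groups that did not overlap, ran from 72.3 to 80.1 CPM over the wild-type libraries and from 87.8 to 125 CPM over the knockout libraries. Of the 24 genes, 2 had such groups on the higher side and 0 on the lower, against 4.21% and 4.71% of all tested genes. The site proteases Mbtps1 and Mbtps2 had log2 fold changes of -0.13 and -0.26 (edgeR adjusted p = 0.753 and 0.591). Among the most abundant genes of this list were Vcp, the ATPase that extracts proteins from the membrane, and Pgrmc1, at 0.08 and 0.03 on the log2 scale. Of 10 coactivators and promoter partners, 0 passed in either direction. The most abundant were Lpin1, Sp1 and Ep300, at 0.05, -0.33 and 0.06.

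The target genes of SREBPs lay on the same side as Insig1. Of 21 sterol synthesis genes, 20 were lower and 0 higher in knockout glands at an unadjusted p under 0.05, against 8.11% and 5.33% of all tested genes, with a median log2 fold change of -1.28, beside -1.22 for Insig1. Without the 2 wild-type libraries the median of the 21 genes was -1.37. Hmgcs1, which makes the precursor of mevalonate, and Fdps, which makes farnesyl diphosphate, had log2 fold changes of -1.28 and -2.45, while Dhcr7, the last enzyme of cholesterol synthesis, had 0.25 (edgeR adjusted p = 0.0645, 0.0816 and 0.714). Of 17 fatty acid synthesis genes, 11 were lower and 0 higher against the same shares, with a median of -1.02. Without the 2 wild-type libraries the median of these genes was -1.21. The most abundant were Me1 at -0.55, Acly at -0.00137 and Scd1 at -2.14. The precursors' own values of -0.69 for Srebf2 and -0.42 for Srebf1 were closer to 0 than the medians of their target lists, a comparison made here without a test.

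**Figure D4:**
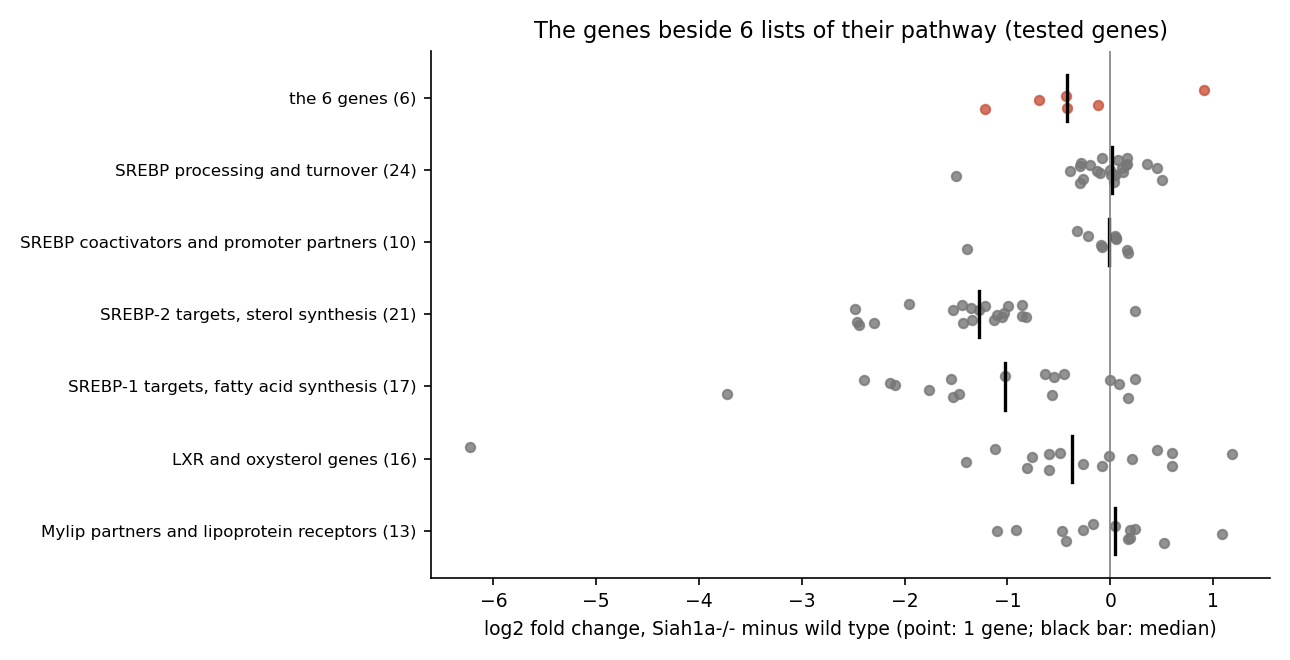
Log2 fold change, knockout minus wild type, of each tested gene (points, x axis) in the set of 6 and in 6 pathway lists (y axis, number of genes in brackets); black bars are medians, and the vertical scatter of points carries no value. The median of the sterol synthesis list is -1.28, that of the processing list 0.02 and that of the 6 genes -0.42.

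The genes around Mylip did not share its direction as a list. Of 16 LXR and oxysterol genes, 0 were higher and 5 lower in knockout glands at an unadjusted p under 0.05, against 5.33% and 8.11% of all tested genes, with a median log2 fold change of -0.38. Of the 5, Abcg5, Hsd3b7 and Rxra were highest in the wild-type ACTH female library with its liver transcripts, at 33.9, 140 and 180 CPM. Without the 2 wild-type libraries named above the median of the 16 genes was -0.17, and fewer of them passed, as did fewer of all tested genes. Abca1, the cholesterol exporter that is a main LXR target, averaged 324 ± 114 CPM over wild-type libraries and 375 ± 138 CPM over knockout libraries (SD, n = 4 each), a log2 fold change of 0.21 (edgeR adjusted p = 0.834). The LXR corepressor Ncor1 had -0.01. Nr1h3, which encodes LXR alpha, had -1.12 and Nr1h2, which encodes LXR beta, had 0.60 (edgeR adjusted p = 0.359 and 0.386). Of 13 Mylip partners and lipoprotein receptors, 2 were higher and 1 lower against the same shares, with a median of 0.05. Without the 2 wild-type libraries the median of the 13 genes was 0.14. Scarb1, the receptor for high-density lipoprotein, had 1.09 and Msn 0.53, while Lrp1, a large lipoprotein receptor, had -0.92 (edgeR adjusted p = 0.194, 0.207 and 0.0997). Ube2d3, an enzyme of the family that passes ubiquitin to Mylip, had 0.24, and Rdx had 0.19. Of the known Mylip substrates in the list, Vldlr was at 82.2 ± 5.88 and 64.6 ± 25.2 CPM in wild-type and knockout glands (SD, n = 4 each). Lrp8 ran from 11.8 to 15.1 CPM in wild-type and from 2.38 to 10.8 CPM in knockout libraries, groups that did not overlap, with an edgeR adjusted p of 0.389. Of the 13 genes, 2 had such groups on the lower side, Lrp8 and Lrp1, and 2 on the higher side. Over all tested genes the shares were 4.71% and 4.21%. These are transcript levels, and the receptor proteins that Mylip marks were not measured.

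For ACTH, the lists were counted at an unadjusted p under 0.05 on average over the genotypes, where 6.11% of all tested genes passed in either direction. Of the 24 processing genes 2 were higher and 1 lower, of the 10 coactivators 1 was higher, and of the 17 fatty acid synthesis genes 4 were higher and 2 lower. The sterol synthesis, LXR and Mylip partner lists had 0 in either direction. Median log2 fold changes with all libraries and without the 2 wild-type libraries were -0.02 and -0.27 for sterol synthesis. They were 0.34 and 0.23 for fatty acid synthesis, 0.04 and -0.02 for processing and 0.38 and -0.02 for LXR genes. For Mylip partners they were 0.07 and 0.14, and for coactivators 0.04 and 0.16. The coactivator that was higher with all libraries was Lpin1, which is also a phosphatidic acid phosphatase, with a log2 fold change of 0.71 (edgeR adjusted p = 0.728). None of the list genes was called for ACTH by edgeR with all libraries.

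Among 10018 genes with enough reads, those whose log2 CPM over the 8 libraries was most like that of each regulator were looked up. Insig1 was most like Tusc5, a gene of adipocytes, at a Pearson r of 0.95, then Atp6v0a2 and Cyp51, a sterol synthesis gene, both at 0.95. Mylip was most like Rpl7a at 0.97, Nemf and Hsp90b1, a chaperone of the endoplasmic reticulum. Srebf2 was most like Pgam1 at 0.94, Wdr37 and Tecr, while Srebf1 had Ctsb at 0.94 and Srebf2 at 0.92 among its first 3. Insig2 was most like C4b at 0.97, Dnaja2 and Aldh3a2, and Scap was most like Asb7 at 0.99, Etaa1 and Sh3bp5l. The coefficients are over 8 libraries that share group membership and depth, were the highest of many, and carry no test.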

How the data were processed

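Single-end RNA-seq of 8 adrenal glands, 1 animal each, was sequenced to reads of 75 bases, per the labels' protocols. The submitters' processing notes name FastQC 0.11, TopHat2 2.0.13, Bowtie2 2.2.5.0, Partek 6.6 and mm10, with no roles. Estimated counts and RPKM per RefSeq transcript are used as the authors deposited them, per the file headers; how reads shared by transcripts were split was not stated in the sources at hand. Estimated counts were summed per symbol (28678 transcripts, 18846 genes), rounded and tested with edgeR 4.0.16 in R 4.3.3 (TMM, filterByExpr with a minimum count of 10, glmQLFit and glmQLFTest). Average effects came from genotype plus treatment plus sex label, the others from a model with the interaction. The call threshold was an adjusted p (Benjamini-Hochberg) under 0.05 over all 15361 tested genes. P-values measure the spread between these animals, 2 per group. CPM are scaled by TMM. Library totals from 8020111 to 29568950 (3.69 times) set the precision. Alternatives were RLE size factors, no filter, DESeq2 1.42.0, limma-voom (limma 3.58.1), limma on log2(RPKM + 0.1), no sex covariate, the interaction model, the 4 libraries of an arm, each library left out in turn, and 2 wild-type libraries left out. The fit was also run on counts simulated at these library sizes, with results not reported here. That simulation held no admixed tissue and no wrong sex label, so it does not test the fit to these libraries.

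Members, lists and rules were chosen with earlier results of these data known. The 6 genes were all named. From each pathway list up to 4 genes called in an average comparison were to be named or, with none called, the 3 with the highest mean CPM, and for each regulator the 3 genes with the highest Pearson correlation; other names were picked after their values were seen. Some genes that these rules name are not reported here. Protein sequences were not used here.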

Additional observations from a re-analysis of the deposited data

Results flagged for a closer look

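Of 24 tests for a single library standing apart within a genotype or treatment, chance alone flags about 1 in 20. Insig2 was at 135 CPM in the wild-type ACTH female library, far above the other 3 wild-type libraries. That library also held the most liver transcripts, and the part of these in the value was not tested. Scap was at 62.7 CPM in the untreated knockout male library, far below the other 3 untreated libraries.

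The ACTH difference in Srebf1 was positive in both wild-type pairs and negative in both knockout pairs, and the interaction was -0.86 on the log2 scale (edgeR adjusted p = 1). Mylip showed the same pattern of signs, with an interaction of -0.49 (edgeR adjusted p = 1). Its log2 differences were 0.10 and 0.70 in the wild-type pairs but -0.06 and -0.06 in the knockout pairs, where its level hardly changed. How often such signs arise by chance was not worked out. Neither gene passed the test of the difference itself. Without the 2 wild-type libraries with kidney or liver transcripts the interactions were -0.17 for Srebf1 and 0.0535 for Mylip.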

How the results depend on the processing

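No gene of the 6 was called with edgeR under any alternative, while DESeq2 called 1 in the average genotype comparison and 1 after ACTH and limma-voom 1 in the former, each time Insig1. The genes called by genotype on average, 4, became 41 with no filter, 932 with DESeq2, 108 with limma-voom, 1 without the sex covariate, 7 on RPKM and 2 without 2 wild-type libraries; those called for ACTH on average, 3, became 8 with no filter, 123 with DESeq2 and 0 without the sex covariate, on RPKM, with the interaction model and without 2 wild-type libraries. By genotype without treatment, 0 became 111 with DESeq2 and 116 with only those 4 libraries. After ACTH, 1 became 11 with no filter, 485 with DESeq2, 13 with limma-voom, 65 with only those 4 libraries, 19 without 2 wild-type libraries, and 0 without the sex covariate and on RPKM. For ACTH in wild type, 0 became 7 with no filter, 37 with DESeq2 and 3 with limma-voom. For ACTH in knockout, 0 became 98 with DESeq2, 1 with only those 4 libraries and 2 without 2 wild-type libraries. For the interaction, 0 became 8 with DESeq2. Leaving out each library in turn gave 0 to 194 genes by genotype, 0 to 20 for ACTH, 0 to 69 by genotype without treatment, 0 to 127 after ACTH, 0 to 53 for ACTH in wild type, 0 to 0 in knockout and 0 to 11 for the interaction, and 0 of the 6 genes in each. The cause was not tested. Some directions turned. Without 2 wild-type libraries, the genotype value of Insig2 was 0.17, the ACTH values of Srebf1 and Mylip were -0.35 and -0.0729 and the interaction of Mylip was 0.0535. The ACTH value of Srebf1 was -0.00303 on RPKM and that of Srebf2 was 0.0334 with limma-voom. With each library left out, the genotype value of Insig2 ran from -0.28 to 0.18, and the ACTH values of Srebf1 from -0.21 to 0.31, of Srebf2 from -0.38 to 0.29 and of Mylip from -0.0239 to 0.31. With 2 animals per group, comparisons within a treatment or genotype have little precision. The labels carry no replicate numbers, so samples were matched by sex label alone, as a covariate.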

Other observations

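The split of counts between transcripts was the same at 1 decimal of a percent in some libraries. For Srebf1, NM_001313979 took 54.3% of the gene's estimated count both in the untreated library labelled wild-type male, with a gene count of 487, and in the knockout ACTH female library, with a gene count of 531. For Scap, NM_001001144 took 26.3% in the untreated libraries labelled wild-type male and knockout male and in the knockout ACTH male library. The authors' estimation of these shares is not described in the sources used here, and the shares are given as values only.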
